A study of Mus musculus with 2 samples.

Results

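The genes of the proteasome, the protease complex that degrades ubiquitin-tagged proteins, were compared between skin cells that bound an antibody against the zinc importer ZIP10 and skin cells that did not. Members are all genes in the deposited table whose symbol is Psma, Psmb, Psmc, Psmd, Psme, Psmf or Psmg followed only by a number, without the immunoproteasome genes Psmb8, Psmb9 and Psmb10. This gave 45 of 23233 genes. Both groups came from ventral skin of 7-day-old wild-type mice of strain C57BL/6, with no allele or agent that sets them apart other than the sort. The labels describe the cells as isolated from hair follicles, whereas the protocol digested whole ventral skin, and they do not give the number of animals or any pooling. Each group is 1 library, so there is no replicate and no test, and every difference describes these libraries.

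The working proteasome is built from a barrel and a cap. The barrel, or core particle, stacks rings of alpha subunits, which form the gate, around rings of beta subunits, 3 of which carry the active sites. The cap, or regulatory particle, joins a ring of ATPases that unfold substrates to non-ATPase subunits that bind ubiquitin chains and remove them. Other activators can take the place of the cap, and dedicated chaperones help the core and the base of the cap to assemble. Nearly all cells express these genes, and in skin the proteasome turns over regulators of keratinocyte growth and differentiation.

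Values are deposited RPKM, that is reads per kilobase of transcript and per fixed number of reads in the library, and ratios are ZIP10-positive over ZIP10-negative. The libraries do not share a zero point: among 9620 genes that reached 1 RPKM in both, the median gene had a ratio of 1.97. Of the summed RPKM, globin genes took 59.4% in ZIP10-negative cells but 3.46% in ZIP10-positive cells. A difference relative to the median gene is therefore the log2 ratio after dividing that shift between the libraries and adding 1 RPKM to each value. Depth was estimated from whole-number ratios of low values and transcript lengths, as about 2.78e+06 and 2.71e+06 reads for positive and negative cells. Exact 95% intervals below rest on read numbers from that estimate and cover counting error only.

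The cells of the libraries differed in kind. Relative to the median gene, 7 of 7 erythroid markers were 2-fold or more lower in positive than in negative cells, with summed levels of 16377 RPKM against 283754 RPKM. So were 4 of 4 genes of the T cell list, at 82.3 against 577 RPKM. Of these, Ptprc, at 4.49 against 9.27 RPKM, is shared with other leukocytes. Of 8 macrophage and monocyte markers 6 were at least 2-fold higher, at 1142 against 50.6 RPKM, with Lyz2 and Aif1 listed at 0 in ZIP10-negative cells. Without Lyz2 the sums were 370.1 against 50.6 RPKM. Of 5 mast cell markers 4 were at least 2-fold higher, at 299 against 14.3 RPKM. Keratinocyte markers summed to 3542 against 1299 RPKM, with 2 of 7 at least 2-fold higher, and fibroblast markers to 1121 against 1103 RPKM, with 1 of 7 higher and 2 lower. The sums of all lists are RPKM as deposited. Relative to the median gene, the keratinocyte median was 0.31, with 6 of 7 markers above it, and the fibroblast median -0.88, with 2 of 7 above. No other defining marker of these lists was at 0. The part of this mixture in the proteasome values was not tested, and in such bulk samples fewer cells of a type and less RNA per cell cannot be told apart. Slc39a10, the ZIP10 gene, stood at 49.4 against 11.1 RPKM.

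Of the 45 members, 44 reached 1 RPKM in a library and were compared; the other, Psma8, had 0.724 RPKM in positive cells and a listed 0 in negative cells. As deposited, 42 of the 44 were higher in ZIP10-positive cells, beside 82.7% of all genes compared, and 32 of them were higher by at least 2-fold, where 44.1% of all 12249 genes compared were 2-fold higher, and 1 was at least 2-fold lower, where 3.55% of all genes were. Relative to the median gene, 13 members were at least 2-fold higher, or 29.5%, beside 14.7% of all genes compared, and 2 were at least 2-fold lower, or 4.55%, beside 11.4%. Of the 44, 34 lay above the median gene by any amount, beside 54.5% of all genes. The median difference of the members was 0.51 on the log2 scale, and that of all genes compared was 0.094. Among the 5210 genes that reached 10 RPKM in either library, a level that most members reach, the median was 0.33 and 19.3% were 2-fold higher. When each library was instead scaled to its sum without the 50 most abundant genes, 6 members were 2-fold higher beside 9.74% of all genes and 4 lower beside 17.5%, and the members' median of 0.16 stood against -0.18 for all genes. A sum that omitted only globin genes and the ribosomal RNA precursor Rn45s (the globin-free scaling) gave 5 members higher beside 8.99% and 4 lower beside 19.2%. The 32, 13, 6 and 5 higher members include Psmg4, which is listed at 0 in negative cells. Without members listed at 0 the counts were 31, 12, 5 and 4 of 43. The members' summed level was 0.828% of the RPKM sum without globin genes and Rn45s in ZIP10-positive and 0.791% in ZIP10-negative cells.

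**Figure D1:**
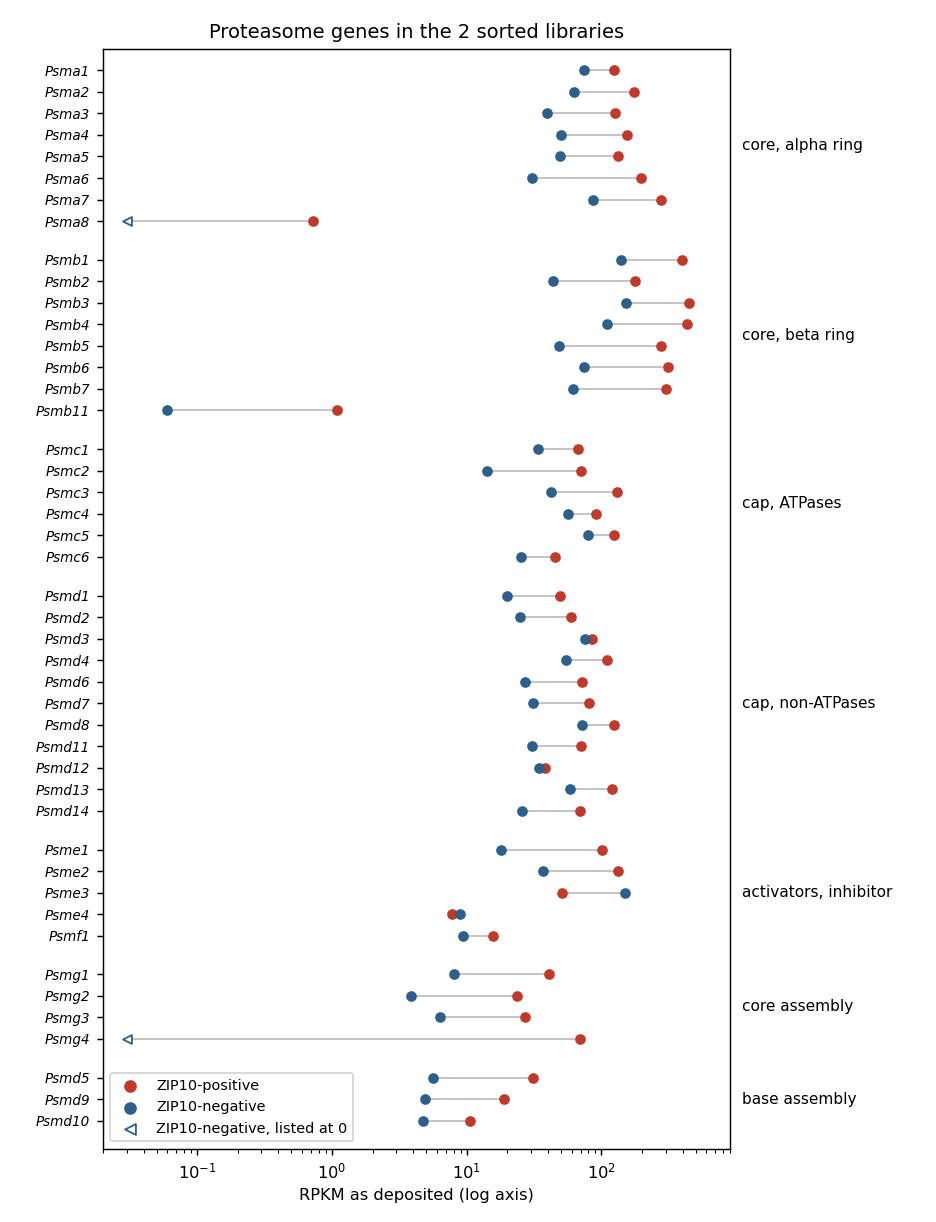
RPKM as deposited on a log axis for all 45 members, grouped by role, with 1 red point for the ZIP10-positive and 1 blue point for the ZIP10-negative library; open triangles mark the 2 genes listed at 0. Red lies to the right of blue for every gene except Psme3 and Psme4.

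Genes of the beta rings lay furthest above the median gene among the subunits of the core. All 7 beta genes of the standard core were higher relative to the median gene, with a median difference of 1.05, and 5 were at least 2-fold higher. Of all genes compared, 54.5% were higher and 14.7% at least 2-fold higher. These 7 genes are short, with a median of 899 bases, and 41.8% of all genes under 1000 bases were 2-fold higher. Relative to genes of similar transcript length, described below, 0 of the 7 were 2-fold higher and their median was 0.29. Psmb5 encodes the subunit with chymotrypsin-like activity, the site that most proteasome drugs block. Its level was 275 RPKM in positive and 48.6 RPKM in negative cells, a ratio of 5.65 with a counting interval of 4.54 to 7.16. Psmb7, with trypsin-like activity, stood at 299 against 61.6 RPKM, a ratio of 4.85 (4.08 to 5.77). Psmb6, with caspase-like activity, stood at 313 against 73.9 RPKM, a ratio of 4.23 (3.47 to 5.21). The 3 catalytic genes were thus 1.10 to 1.51 above the median gene on the log2 scale.

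The other beta genes shape the barrel without an active site. Psmb2 and Psmb4 were also 2-fold above the median gene, at 179 against 43.5 RPKM and 433 against 109 RPKM, with Psmb4 only just past that line at 1.003. Psmb3 had the highest level of all members in both libraries, 448 against 152 RPKM, and with Psmb1, at 393 against 139 RPKM, it had the smallest beta differences, 0.57 and 0.51. All 7 kept their direction under each scaling tried, but only Psmb5 stayed 2-fold higher without the top 50 genes in the scaling, at 1.16. Relative to genes of similar transcript length Psmb3 turned lower, at -0.23. Psmb11, the beta subunit of thymus cortex, stood at 1.09 against 0.0601 RPKM, too few reads for a fold.

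The alpha genes were closer to the median gene, with Psma6 apart from the rest. Psma6 stood at 196 against 30.6 RPKM, a ratio of 6.38 (4.88 to 8.61), and a difference of 1.67, the highest of any subunit gene with a value above 0 in both libraries. It was the only alpha gene of the 7 compared, or 14.3% beside 14.7% of all genes compared, that was at least 2-fold above the median gene. Psma2, Psma3, Psma4, Psma5 and Psma7 lay between 0.44 and 0.70 above it, at 127 to 275 RPKM against 39.4 to 86.5 RPKM. Psma1 fell on the other side of the median gene, at 124 against 73.9 RPKM, with a ratio of 1.67 whose interval of 1.40 to 2.002 holds the median gene's ratio. The alpha median was 0.62, and the ranges of the alpha genes, -0.23 to 1.67, and of the 7 standard beta genes, 0.51 to 1.51, overlap. Relative to genes of similar transcript length, described below, the alpha median was 0.060. By that measure Psma6 lay at 0.87, and Psma5 and Psma7 turned lower, at -0.13 and -0.12.

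**Figure D2:**
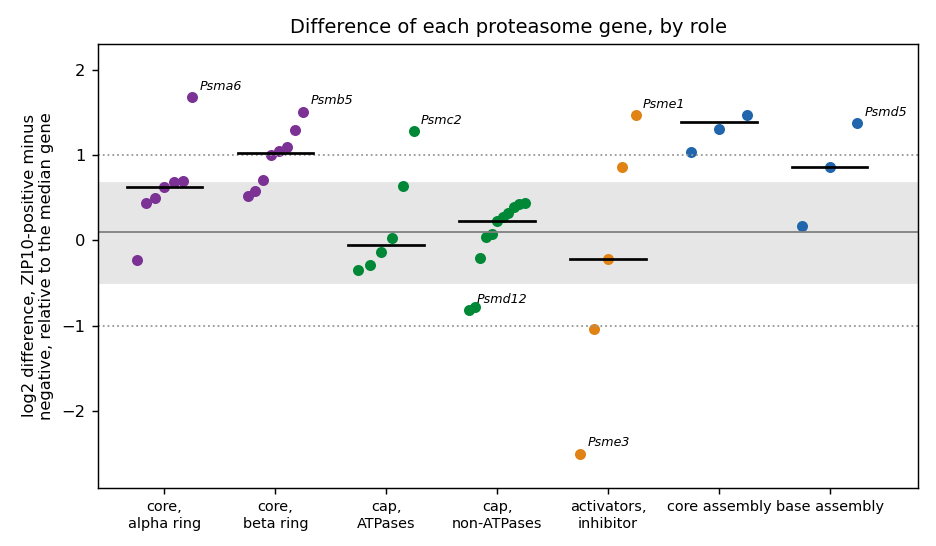
Log2 difference relative to the median gene (vertical axis) for each member compared, by role; black bars are class medians (Psmb11 included), the grey line and band the median and quartiles of all 12249 genes compared, and dotted lines mark 2-fold. Psmg4, listed at 0 in ZIP10-negative cells, enters its class median but is not drawn; beta and core assembly genes lie mostly above the upper dotted line and Psme3 lies at -2.50.

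The cap genes among the members lay around the median gene. They were taken by symbol, so cap genes with other symbols, such as the lid gene Shfm1 described below, are not among them. Of 17 cap genes 11 were above and 6 below it, with a median of 0.073, 1 at least 2-fold higher and none 2-fold lower. The share above was 64.7%, beside 54.5% of all genes compared. The share at least 2-fold higher was 5.88%, beside 14.7%, and 11.4% of all genes were 2-fold lower. Counting intervals lay wholly above the median gene for 7 of them, wholly below for 4 and across it for 6, whereas for the 14 standard core genes they lay above for 13 and across it for 1. The intervals were set against the median gene's ratio of 1.97 and counted for members only, so no share of all genes stands beside them. Other scalings change the counts. Without the top 50 genes the ratio is 2.51, which the intervals of Psma4, Psma5 and Psmd1, for example, hold. With the globin-free ratio of 2.63, those of Psma2, Psmb1, Psmb3 and Psmc3 hold it as well. The sign of the cap median follows the scaling, at -0.27 without the top 50 genes in the scaling and -0.34 with the globin-free scaling. The medians of all genes compared were then -0.18 and -0.24. Under both scalings Psmd3 and Psmd12 were at least 2-fold lower, or 11.8% of the cap genes, beside 17.5% and 19.2% of all genes.

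The ATPases of the cap were unequal. Psmc2 stood at 70.1 against 14.2 RPKM, a ratio of 4.93 (3.74 to 6.61). Of the 17 cap genes among the members, only Psmc2 was at least 2-fold above the median gene, at 1.28. Psmc3 stood at 131 against 42.4 RPKM and lay 0.64 above it. Psmc1, at 67.5 against 33.7 RPKM, had nearly the ratio of the median gene, and Psmc6, at 45.4 against 25.4 RPKM, lay 0.14 below it. Psmc4 and Psmc5 stood at 90.4 and 123.5 RPKM against 56.2 and 79.9 RPKM, and their intervals of 1.34 to 1.94 and 1.31 to 1.83 lay below the median gene's ratio. The products of these 6 genes sit in 1 ring, and their ratios ran from 1.54 to 4.93.

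Among the 11 non-ATPase cap genes that are members the largest departures were downward. Psmd3 and Psmd12, which encode scaffold subunits of the lid, stood at 85.4 against 75.3 RPKM and 38.1 against 34.7 RPKM. Their ratios of 1.13 (0.990 to 1.301) and 1.098 (0.887 to 1.37) were the lowest of the cap and lay 0.79 and 0.82 below the median gene. Psmd8, at 123 against 72.0 RPKM, also lay below it, at -0.21. The highest of this group was Psmd14, the deubiquitinating enzyme that cuts ubiquitin chains from substrates, at 68.8 against 25.6 RPKM and 0.44. Psmd4, a ubiquitin receptor, stood at 109.7 against 54.1 RPKM and lay at 0.040. The large base scaffolds Psmd1 and Psmd2 stood at 49.5 and 59.7 RPKM against 20.02 and 24.8 RPKM, at 0.32 and 0.28, and turned lower with both of the other scalings, as did Psmc1, Psmd4, Psmd11 and Psmd13. The lid genes Psmd6 and Psmd7 lay at 0.42 and 0.39, and Psmd7 turned lower with the globin-free scaling.

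The activators held the clearest contrast. Psme3, which encodes a nuclear activator that works without ubiquitin, had 51.0 RPKM in positive cells against 149.7 RPKM in negative cells. It was the only member at least 2-fold lower as deposited, with a ratio of 0.341 (0.301 to 0.386) and a difference of -2.50 relative to the median gene, and it stayed 2-fold lower under each scaling and pseudocount tried. Among all members its level ranked second in ZIP10-negative cells, just under Psmb3, and place 32 in ZIP10-positive cells. Psme1 and Psme2, which form the activator that interferon-gamma induces, went the other way. Psme1 stood at 101 against 18.1 RPKM, a ratio of 5.57 (4.03 to 7.80), and Psme2 at 132 against 36.6 RPKM, a ratio of 3.61 (2.73 to 4.76). Relative to genes of similar transcript length, described below, Psme1 lay at 0.90, but Psme2 at 0.053 was close to genes of its length. Psme4, a large nuclear activator, stood at 7.77 against 8.85 RPKM and was just past 2-fold below the median gene, at -1.04. That call is lost with a pseudocount of 5, as deposited, at -0.17, and relative to genes of similar transcript length, at -0.87. Psmf1, known as a proteasome inhibitor, stood at 15.7 against 9.37 RPKM, at -0.22.

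Ratios within a library do not depend on scaling between libraries, and they show the same contrast. The sum of Psme1 and Psme2 was 4.57 times the level of Psme3 in ZIP10-positive cells and 0.366 times in ZIP10-negative cells. Psme3 stood at 0.217 times the median of the 14 standard core genes in ZIP10-positive cells and at 2.41 times that median in ZIP10-negative cells. The median of the 14 core genes was 3.28 times that of the 17 cap genes in ZIP10-positive and 1.84 times in ZIP10-negative cells. The median beta gene was 2.04 times the median alpha gene in ZIP10-positive and 1.47 times in ZIP10-negative cells. These ratios were not adjusted for transcript length, with which the differences moved, as described below. Beta genes are shorter than alpha genes, at medians of 899 and 1201 bases, and core genes shorter than cap genes. Relative to genes of similar length, medians were 0.29 for beta, 0.060 for alpha, 0.27 for the 14 core and -0.21 for cap genes. Core genes spanned 124 to 448 RPKM in ZIP10-positive cells, from Psma1 to Psmb3, and 30.6 to 152 RPKM in ZIP10-negative cells, from Psma6 to Psmb3. Over the 42 members with at least 1 RPKM in both libraries, Spearman's rho between the libraries was 0.77, as a description of 2 libraries that share transcript lengths; over all 9620 such genes it was 0.83.

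**Figure D3:**
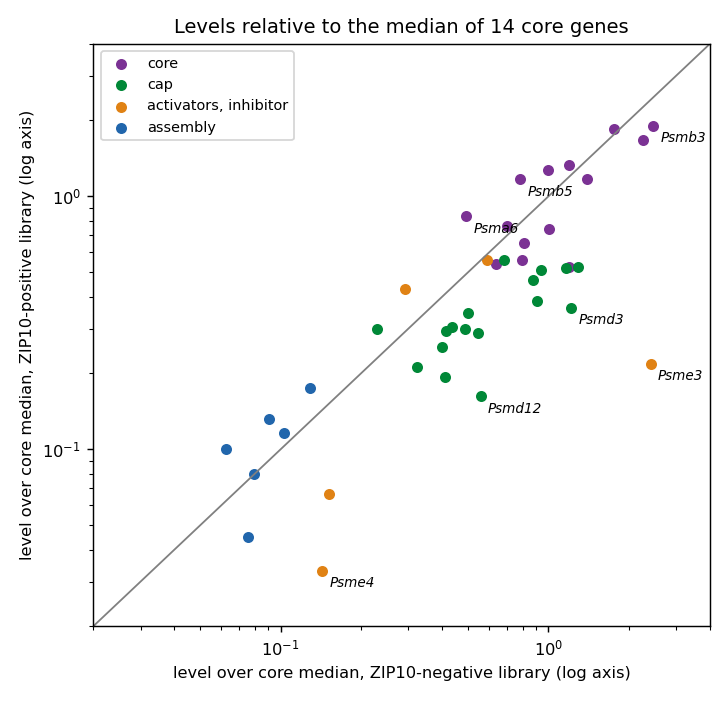
Level of each member divided by the median of the 14 standard core genes of the same library, ZIP10-negative library on the horizontal and ZIP10-positive library on the vertical log axis, for 42 members; the line marks equal values. Most cap genes (green) lie below the line and most assembly genes (blue) above it, and Psme3 lies far below at 2.41 and 0.217.

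Assembly genes had the largest median difference of the 4 classes, 1.2995 for 7 genes, of which 5 were at least 2-fold above the median gene. That is 71.4%, beside 14.7% of all genes compared. Relative to genes of similar transcript length, described below, the class median was 0.74. By that measure 2 of the 7, Psmd5 and Psmg4, were 2-fold higher, or 28.6% beside 9.59% of all genes. Without Psmg4 it was 1 of 6, while Psmg1, Psmg2 and Psmg3 lay at 0.74, 0.90 and 0.22. Psmg1 and Psmg2, whose products form a dimer that guides the alpha ring, stood at 40.9 and 23.5 RPKM against 8.01 and 3.88 RPKM, with ratios of 5.11 (3.12 to 9.15) and 6.07 (2.98 to 13.96). Psmg3, of a second such dimer, stood at 27.1 against 6.38 RPKM, a ratio of 4.26 (2.08 to 8.73). Psmg4, the partner of Psmg3, reached 69.5 RPKM in positive cells and had a listed 0 in negative cells, where a value of 0 can be a failed estimate, so no fold is given. Without Psmg4 the class median was 1.17, with 4 of 6 genes, or 66.7%, at least 2-fold higher.

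Chaperones of the cap base were less uniform. Psmd5 stood at 30.9 against 5.61 RPKM, a ratio of 5.50 (4.196 to 7.28), and Psmd9 at 18.8 against 4.94 RPKM, a ratio of 3.81 (2.57 to 5.81). Psmd10, also known as gankyrin, stood at 10.6 against 4.70 RPKM and lay 0.17 above the median gene, with an interval of 1.25 to 4.60 that holds the median gene's ratio, and it turned lower with both other scalings. Without the top 50 genes in the scaling the assembly median was 0.97, with 3 of 7 genes at least 2-fold higher. That is 42.9%, beside 9.74% of all genes compared. With Psmg4 left out as well the median was 0.84, with 2 of 6 genes 2-fold higher. Read numbers were low, between 9 and 64 in ZIP10-negative cells for the 6 genes above 0.

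Transcript length moved with these differences. Over all genes compared, the median difference was 0.81 for 778 genes with transcripts under 1000 bases and -0.17 for 4758 genes of 3000 bases or more. The members are short, with a median of 1476 bases against 2756 bases for all genes compared, and core genes (1165 bases) are shorter than cap genes (1636 bases). Relative to genes in the same band of length, an alternative chosen after the data were seen, the median of all members was 0.13, of core genes 0.29, of cap genes -0.21, of activator and inhibitor genes -0.044 and of assembly genes 0.74. By that measure 2 members, Psmd5 at 1.55 and Psmg4, were at least 2-fold higher, beside 9.59% of all genes, and Psme3 at -2.62 and Psmd12 at -1.10 were at least 2-fold lower, beside 11.8%. Without members listed at 0, 1 of 43 was 2-fold higher, or 2.33%. Psmc2 at 0.996, Psme1 at 0.90, Psma6 at 0.87, Psmb7 at 0.73 and Psmb5 at 0.70 stayed above genes of their length, while Psma5, Psma7, Psmb3, Psmc1, Psmd4, Psmd6, Psmd10 and Psmd13 turned lower. Assembly genes thus stayed above core genes and core above cap genes, at smaller values, while the activator and inhibitor median moved from below the cap median to above it. Level, as the geometric mean of both libraries, moved with the difference as well. Among compared genes whose geometric mean reached 1 RPKM, the median rose from -0.078 at 1 to 10 RPKM to 0.68 at 200 RPKM or more, where 31.8% were at least 2-fold higher. Members did not all exceed genes of their own level: the 16 members at 50 to 100 RPKM had a median of 0.23 against 0.35 for all genes there, and the 3 members at 200 RPKM or more 0.57 against 0.68. The 10 members at 20 to 50 RPKM lay at 0.30 against 0.28. The 5 members at 100 to 200 RPKM lay at 1.10 against 0.50, the 4 at 10 to 20 RPKM at 1.17 against 0.12, and the 4 at 1 to 10 RPKM at 0.52 against -0.078.

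**Figure D4:**
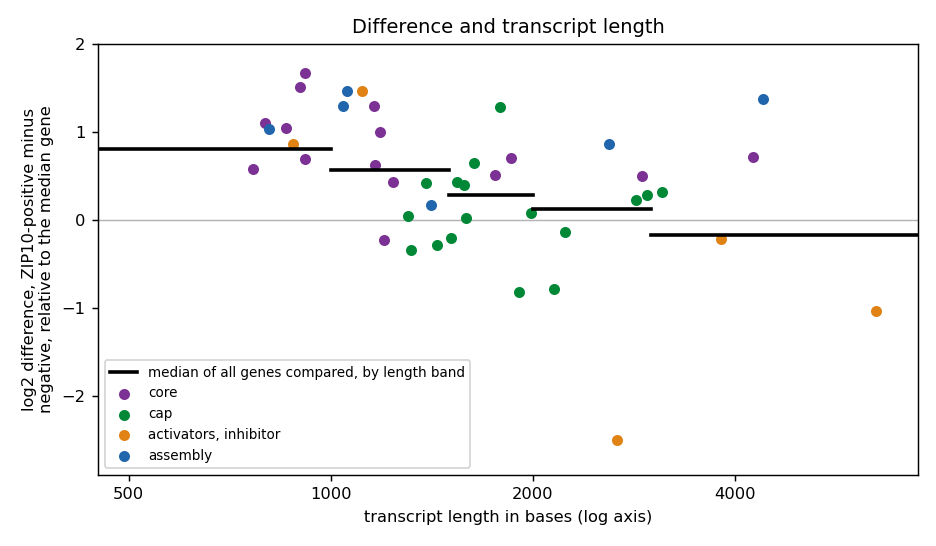
Log2 difference relative to the median gene against transcript length on a log axis, with 1 point per member above 0 in both libraries, coloured by class; black bars give the median of all genes compared in each band of length. The bars fall from 0.81 under 1000 bases to -0.17 from 3000 bases, and Psme3 and Psmd12 lie below their bars while Psmd5 lies above its bar.

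Other genes of the pathway lay near the background of all genes. Of 27 genes, without the immunoproteasome, 4 were at least 2-fold above the median gene, or 14.8% beside 14.7% of all genes compared, and 2 below it, or 7.41% beside 11.4%. Their median was 0.066, beside 0.094 for all genes compared. Shfm1, a small lid subunit also named Sem1, stood at 676 against 122 RPKM and lay 1.49 above the median gene. Pomp, the chaperone that closes the assembly of the core, stood at 172 against 45.9 RPKM, 0.732 and 0.739 times the core median of the same library. Nfe2l1 encodes the transcription factor that raises proteasome genes when proteasome activity is low, and it stood at 11.5 against 22.3 RPKM, a difference of -1.81 relative to the median gene. Ddi2, the protease that activates that factor, went the other way at 9.58 against 1.60 RPKM. Ubb, a polyubiquitin gene, stood at 1545 against 2828 RPKM, a difference of -1.85. The segregase Vcp, which pulls ubiquitin-tagged proteins out of complexes, lay at -0.017, while its cofactors Ufd1l and Nsfl1c were at least 2-fold above the median gene, at 1.012 and 1.10. Among the shuttle receptors, which carry substrates to the cap, Rad23b lay at 0.51 and Ubqln2 at -0.44. Neither E1 gene passed 2-fold.

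The immunoproteasome genes replace the catalytic beta subunits after interferon. Psmb9 and Psmb10 stood at 34.01 and 35.04 RPKM against 5.50 and 6.22 RPKM, 1.53 and 1.42 above the median gene, and Psmb8 stood at 59.2 against 26.4 RPKM, 0.18 above it. Within a library, Psmb8 was 0.216 times its standard counterpart Psmb5 in ZIP10-positive and 0.543 times in ZIP10-negative cells. Psmb9 was 0.109 and 0.0745 times Psmb6, and Psmb10 was 0.117 and 0.101 times Psmb7, respectively.

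Because many proteasome genes respond together to Nfe2l1 through the antioxidant response element, promoters were searched for the core of that element, TGACNNNGC, on both strands of 250 bases before to 50 after each RefSeq start (GRCm38.p6). Of 37 members with a promoter in the table, 6 held it, or 16.2%, beside 17.1% of 8654 genes compared that had a promoter and 14% of all 27025 genes in the table. The median difference relative to the median gene was 0.36 for the 6 with a match and 0.44 for the 31 compared without one. CCAAT, searched on both strands in the same way, lay in 13 of the 37 members, or 35.1%, beside 42.8% of the genes compared. A match is a run of letters and not a site shown to be bound. Shown are the matches near the start, in capitals, in the catalytic genes Psmb5 and Psmb6, the assembly gene Psmd9 and the activator gene Psme4, with Psme3, the member farthest below the median gene, and Psmg4, listed at 0 in 1 library, which hold no match to TGACNNNGC; CCAAT is not in capitals, and in Psme3 it lies on the opposite strand 14 to 10 bases before the start. Each sequence runs 5′ to 3′ on the strand of the gene from 100 bases before the start, 110 bases in all.
Psmb5, chr14:54617986-54618095, minus strand: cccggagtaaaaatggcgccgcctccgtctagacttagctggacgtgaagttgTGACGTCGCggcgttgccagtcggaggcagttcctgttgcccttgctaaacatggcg
Psmb6, chr11:70525257-70525366, plus strand: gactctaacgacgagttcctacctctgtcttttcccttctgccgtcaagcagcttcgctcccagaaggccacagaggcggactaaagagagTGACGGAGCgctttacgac
Psmd9, chr5:123228090-123228199, plus strand: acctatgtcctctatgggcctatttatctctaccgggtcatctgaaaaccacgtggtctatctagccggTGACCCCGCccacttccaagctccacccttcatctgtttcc
Psme4, chr11:30771675-30771784, plus strand: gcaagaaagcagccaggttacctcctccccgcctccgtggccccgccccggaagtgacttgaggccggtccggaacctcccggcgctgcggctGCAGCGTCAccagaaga
Psme3, chr11:101316113-101316222, plus strand: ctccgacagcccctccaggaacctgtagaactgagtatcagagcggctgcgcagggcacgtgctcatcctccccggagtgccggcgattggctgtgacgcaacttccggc
Psmg4, chr13:34162864-34162973, plus strand: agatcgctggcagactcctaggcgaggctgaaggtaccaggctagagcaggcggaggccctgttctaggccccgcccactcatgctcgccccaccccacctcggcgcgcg
In Psmb5 the match lies 47 to 39 bases before the start and in Psmb6 it ends on the base before the start, while in Psme4 it lies on the opposite strand. The other 2 members with a match, Psmc6 and Psmd12, hold it more than 200 bases before the start.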

How the data were processed

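RNA of ZIP10-positive and ZIP10-negative cells, 1 library each, was sequenced per the labels' protocols. The authors deposited RPKM values, 1 per gene symbol and library; cutadapt, TopHat, Cufflinks and build mm9 are named in the submitters' processing notes, while for settings, annotation and strand use the sources used here give nothing. Genes reaching 1 RPKM in either library were compared as log2((positive + 1)/(negative + 1)) after scaling to the median gene, with no test. Counts 2-fold or more apart are by size alone. Depth was estimated as follows: of 1389 genes above 0 but not above 1 RPKM in either library, 64.6% had whole-number ratios (numbers up to 20, tolerance 0.0012%), and 34.8% of 210 single-transcript genes lay near the most frequent depth, with 199 bases taken off each length. Lengths are GENCODE vM21 transcripts that map to RefSeq mRNAs, an annotation of another build (GRCm38). Intervals are exact binomial (Clopper-Pearson). RefSeq lists 7 pseudogenes or close copies of 5 members (Psma5, Psmb5, Psmb6, Psmb7 and Psme2), whose reads can be shared. The members, lists and naming rule (members 2-fold from the median gene, listed at 0, extreme in their class or catalytic) were chosen with earlier results of these data known; members named beyond that rule were chosen after their values were seen. Alternatives varied the pseudocount, filter, scaling, class assignment and length. Software was Python 3.11.15 with scipy 1.17.1, numpy 2.4.6, pandas 2.3.3 and matplotlib 3.10.9. The computation was also run on simulated reads. No difference in globin share was made between the simulated libraries, so that run does not bear on the choice of scaling. Values of 2 genes of the pathway list are not reported here.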

Additional observations from a re-analysis of the deposited data

How the results depend on the processing

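With 1 library per group no replicate could be left out. No paired analysis was possible because each group holds 1 library. The signs of the medians of all members, core genes and assembly genes held under the alternatives run; those of cap genes and of activator and inhibitor genes did not. As deposited, the medians were 1.43 for all members, 1.66 for core, 1.04 for cap, 0.69 for activator and inhibitor and 2.22 for assembly genes, with 32 members 2-fold or more above and 1 below. Scaled to the genes outside the 50 most abundant, they were 0.16, 0.36, -0.27, -0.54 and 0.97, with 6 higher and 4 lower. Without globin genes and Rn45s they were 0.094, 0.29, -0.34, -0.60 and 0.91, with 5 higher and 4 lower. Relative to genes of similar transcript length, added after the data were seen, they were 0.13, 0.29, -0.21, -0.044 and 0.74, with 2 higher and 2 lower. Psmg4, listed at 0 in negative cells, is among the higher members in each of these counts. The shares of all genes moved as well. In the same order, 44.1%, 9.74%, 8.99% and 9.59% of all genes were 2-fold higher, and 3.55%, 17.5%, 19.2% and 11.8% were 2-fold lower. A pseudocount of 5 gave a median of 0.45 for all members and 1 gene lower. A filter at 10 RPKM gave 0.32 for activator and inhibitor genes, without Psme4, and 1 gene lower. Counting Psmd5, Psmd9 and Psmd10 as cap genes gave a cap median of 0.20. Ratios within a library do not involve the scaling, but they were not adjusted for transcript length. Psme3 was at least 2-fold lower under each alternative run. Depth limits the assembly genes most.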

Other observations

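Psmc3ip, a recombination factor whose symbol continues after the number and which is no proteasome subunit, had 16.8 RPKM in positive cells against 11.03 RPKM in negative cells.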
